A study of Oryza sativa with 6 samples.

Results

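The regions described here are stretches of rice chromatin with a called peak in every library of the series and, in nearly every library, a single summit. The mark assayed was acetylation of histone H3 at lysine 9 (H3K9ac), and the calls were not checked against an input control here. They were chosen by the deposited peak lists themselves. On the 12 nuclear chromosomes, intervals sharing 1 bp or more between or within the 6 lists were merged, merged regions called in all 6 lists were kept, and a region was a member when at most 1 list gave it an interval with several summits. The rule found 1783 members among 17468 merged regions, or 10.2%, and they made up 67.1% of the 2657 regions called in all 6 lists. The other 874 always called regions had several summits in at least 2 lists.

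The libraries came from leaves of Oryza sativa seedlings that were 20 days old and grown in soil in a greenhouse. Control plants were not infested, and larvae of the fall armyworm, Spodoptera frugiperda, had been on the plants of the other groups for 3 h or for 12 h, with 2 libraries in each of the 3 groups. The assay was CUT&Tag, in which a transposase held at the mark by an antibody inserts sequencing adapters into nearby DNA; the sample labels give leaf nuclei while the series design speaks of whole seedlings. Neither the cultivar nor whether replicates came from separate plants is given in the labels, so a p-value here speaks only to how far these libraries vary, and that variation may be technical.

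H3K9ac is placed by histone acetyltransferases and removed by histone deacetylases. In plants it is concentrated around the start of transcribed genes, over the first nucleosomes, and its level tends to follow transcription. A leaf sample mixes cell types, so fewer cells with the mark at a region and less of the mark per cell cannot be told apart. Gene names and sequences were not used here, because the annotation at hand is of another genome assembly than the peak lists; regions are therefore identified by position on build IRGSP-1.0. For the same reason the leaf label was not checked against marker genes.

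The lists differed in length, from 5150 and 5644 peaks in the control libraries to 11738 and 14010 at 3 h and 12548 and 12167 at 12 h. The members accounted for 39.1% and 35.1% of the called regions in controls, 17.5% and 15.0% at 3 h, and 16.2% and 16.4% at 12 h. Depth is known only from the coverage and background that the fold and p-value of each peak imply. The median member had 17 and 16 fragments over its summit in controls, 21 and 22 at 3 h, and 18 in both libraries at 12 h. The genome background, a single level per list, was 2.432 and 2.004 fragments in controls and 2.125 and 2.316 at 3 h. It was lowest at 12 h, at 1.489 and 1.429 fragments. Relative to it, the median member's coverage was 6.99 and 7.98 times in controls, 9.88 and 9.50 at 3 h, and 12.1 and 12.6 at 12 h. Fragment counts of different libraries are therefore not on one scale. With such coverage single values have wide counting error, and the listed strength of one region in one library is imprecise.

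Of the 1783 members, 1099 had no list with several summits and 684 had exactly 1. In single libraries, 63 and 45 members had several summits in controls, 148 and 224 at 3 h, and 112 and 92 at 12 h. Just inside the edge of the rule lie the 684 members with several summits in 1 list, and just outside it 386 regions with several summits in 2. The 2 of highest mean fold percentile on each side serve as examples. A member on chromosome 6 (10479262 to 10480737) and one on chromosome 3 (8263441 to 8264514), each inside the edge, stood at mean fold percentiles of 98.3 and 97.5 among the always called regions. Outside it, regions on chromosome 10 (20736694 to 20738078) and chromosome 12 (20018732 to 20020522) stood at 94.7 and 94.4. The fold of a peak is the enrichment of its summit over local background as the authors' peak caller gave it, and a percentile ranks that fold within one list.

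The members were short compared with the several-summit regions, which is tied to the rule, since a longer interval has more room for a second summit. Merged over the 6 lists, the median member spanned 1077 bp, with quartiles of 917 and 1270 bp, against 1518 bp for the several-summit regions. Together the members covered 1.98 Mb. In 1037 members every list gave exactly 1 interval with 1 summit, while 166 members (9.31%) were split into separate intervals in at least 1 list.

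The members stood above the middle of their lists, as did the several-summit regions. Their median fold percentile within the whole list was 59.6 and 61.9 in controls, 75.3 and 78.0 at 3 h, and 75.9 and 75.2 at 12 h. The several-summit regions had 61.2 and 62.7 in controls, 69.3 and 71.4 at 3 h, and 69.1 and 68.8 at 12 h, so that they stood slightly above the members in controls and below them in the infested lists. The rule, which asks for a call in every list, bears on this, and the part of list length in the difference between groups was not tested. Among the 100 peak regions with the highest fold of each list, 68 and 69 were members in controls, 74 and 69 at 3 h, and 62 and 71 at 12 h, whereas several-summit regions took 16 and 12, 7 and 8, and 8 and 6; members outnumber them by 1783 to 874. By q-value, the weakest call of a member was most often in a control list. The lowest −log10 q-value fell in control replicate 1 for 630 members (35.3%) and in control replicate 2 for 551 (30.9%), against 115 to 175 in each infested library. By fold percentile among the always called regions the lists were more even. The lowest percentile fell in the control lists for 383 and 352 members, and in each infested library for 252 to 279. The highest fell in the control lists for 319 and 323 members, and in each infested library for 263 to 301.

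Members were called wider in the infested libraries. Their median called width was 618 and 653 bp in controls, 788 and 836 bp at 3 h, and 796 and 829 bp at 12 h. Both control values lay below all 4 infested values, and the 3 h and 12 h values overlapped. The group means were 635.5 ± 24.7 bp (SD, n = 2) in controls, 812 ± 33.9 bp at 3 h and 812.5 ± 23.3 bp at 12 h, a log2 ratio to control of 0.35 at both times. An exact two-sided permutation test over libraries gave p = 0.333 at each time, the smallest p that 2 libraries against 2 can give, and 0.133 for the 4 infested libraries against the controls, the smallest for that design. The difference therefore could not pass a threshold of 0.05, and between 12 h and 3 h the exact p was 1.

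The several-summit regions differed in the same way, from a mean of 992.5 bp in controls to 1240 bp at 3 h and 1227 bp at 12 h, log2 ratios of 0.32 and 0.31. The list lengths given above moved with these widths. When each list was shortened to the length of the shortest, which leaves out weaker peaks and keeps the called width of the rest, 989 members were left. Their log2 ratios over control were 0.35 (3 h) and 0.37 (12 h) (exact permutation p = 0.333 for each). With only peaks of −log10 q of at least 5 the ratio was 0.26 at both times. With no list allowed several summits it was 0.32 at both times. With one library left out it ran from 0.32 to 0.44.

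**Figure D1:**
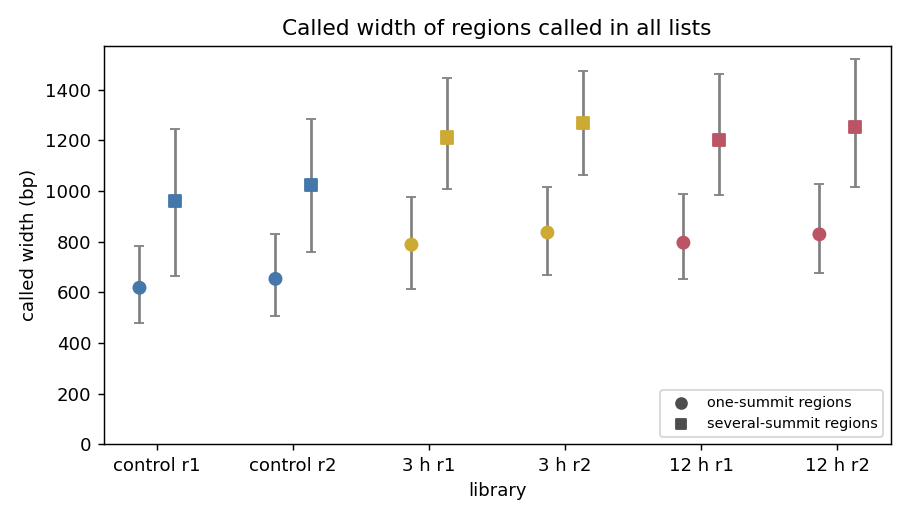
Called width in bp of one-summit regions (circles) and several-summit regions (squares) in each library, as medians with bars from the lower to the upper quartile, r1 and r2 being replicates. The control medians of the one-summit regions, 618 and 653 bp, lie below the 4 infested medians, which run from 788 to 836 bp.

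The greater width lay on both sides of the summit. Measured from the median summit position of the 6 lists, the median distance to the left edge was 305.5 and 317.5 bp in controls, 377 and 395 bp at 3 h, and 389.5 and 400.5 bp at 12 h. The distance to the right edge was 324.5 and 331.5 bp in controls, 391.5 and 415 bp at 3 h, and 397 and 408.5 bp at 12 h. On either side both controls lay below all infested libraries, with an exact permutation p of 0.333 at each time. The median gain was 72.25 bp on the left and 69.75 bp on the right, left and right being directions on the chromosome, not of transcription. Over 28 such exact permutation tests of medians per library, the smallest Benjamini-Hochberg adjusted p was 0.424. With so few libraries none could have been under 0.05.

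Member by member, the mean infested width exceeded the mean control width at 1429 of 1783 (80.1%), against 81.0% of all always called regions. At 636 members (35.7%) all 4 infested widths exceeded both control widths, against 37.9% of all always called regions and 42.4% of the several-summit regions. At 52 members (2.92%) all 4 were narrower than both controls, against 2.67% of all always called regions. Both edges lay farther out at 964 members (54.1%), one edge at 669 (37.5%) and neither at 150 (8.41%), against 55.1%, 36.8% and 8.09% of all always called regions.

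The 8 members with the highest mean fold percentile went the other way. The first, on chromosome 8 (22325246 to 22326128), was listed at a fold of 16.4 and 16.6 in controls, 14.6 and 17.3 at 3 h, and 18.6 and 17.6 at 12 h. Called widths were 809 and 858 bp in controls, 587 and 584 bp at 3 h, and 781 and 816 bp at 12 h, so that the 3 h libraries were the narrowest. Its summit coverage was 142 and 134 fragments in controls, 61 and 89 at 3 h, and 125 and 123 at 12 h. The local background under it was likewise lower at 3 h, at 3.25 and 4.20 fragments against 7.72 and 7.14 in controls and 5.76 and 6.03 at 12 h.

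The second, on chromosome 6 (55922 to 56692), had a coverage of 156 and 129 fragments in controls, 122 and 135 at 3 h, and 85 and 78 at 12 h. In fragments, the 12 h libraries were lowest here, while 3 h and control values overlapped. The third, on chromosome 2 (28720948 to 28721981), had the highest coverage of the 8, with 232 and 226 fragments in controls, 208 and 225 at 3 h, and 174 and 183 at 12 h, and its width kept between 961 and 1034 bp throughout. The fourth, on chromosome 10 (899 to 1635), lay at the start of the chromosome's coordinates, with 50 and 51 fragments in controls, 39 and 51 at 3 h, and 31 and 34 at 12 h.

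Another pair of the 8 lay close together on chromosome 10 (10919108 to 10919804, and 10910302 to 10911016). The first of the pair had 79 and 72 fragments in controls, 40 and 35 at 3 h, and 67 and 70 at 12 h. The second had 74 and 63 fragments in controls, 31 and 29 at 3 h, and 55 and 45 at 12 h. In fragments, the 3 h libraries were lowest in both, and the 12 h libraries lay between them and the controls. The last ones, on chromosome 1 (33553138 to 33553914) and chromosome 12 (5612892 to 5613487), had coverages of 76 and 58, 26 and 54, and 56 and 56 fragments, and of 69 and 55, 27 and 35, and 67 and 57 fragments, for control, 3 h and 12 h in that order.

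All 8 were narrower in both 3 h libraries than in both controls, as were 121 of the 1783 members (6.79%) and 6.40% of all always called regions. At 12 h, 6 of the 8 were narrower than both controls, as were 131 members (7.35%) and 7.87% of all always called regions. The pattern thinned out down the ranking: 17 of the 20 highest members and 30 of the 50 highest were narrower at 3 h, but of the 100 highest 32 were narrower and 32 wider. The ranking used the fold averaged over all 6 lists, not the width. Each list also held peaks in the chloroplast genome, from 23 to 29, and local background there was lowest at 3 h. Its median over chloroplast peaks was 8.06 and 7.51 times the genome background of the list in controls. At 3 h it was 3.19 and 3.37 times, and at 12 h 8.09 and 8.23 times. Among the 8, local background in fragments was also lowest at 3 h on chromosomes 8, 1 and 12 and at the close pair on chromosome 10. At the members on chromosome 6 (55922 to 56692), chromosome 2 (28720948 to 28721981) and chromosome 10 (899 to 1635) it was lowest at 12 h instead. The part of the chloroplast background in the 3 h values of the 8 members was not tested.

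**Figure D2:**
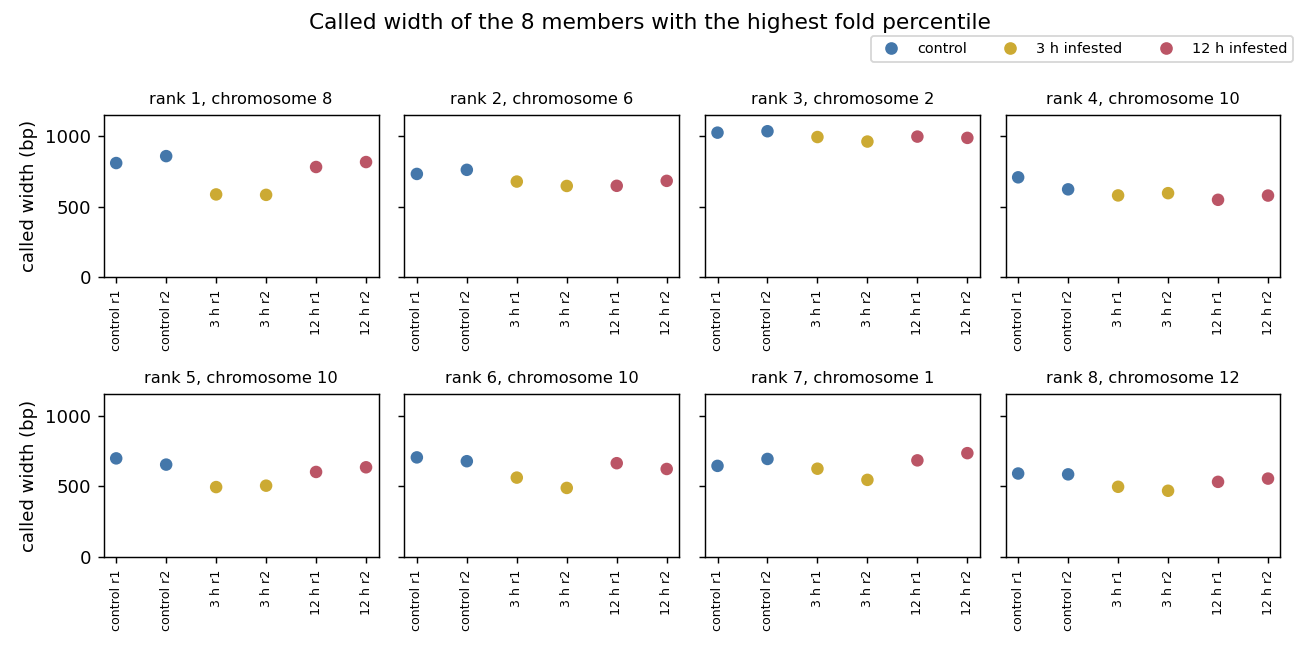
Called width in bp of the 8 members with the highest mean fold percentile, one point per library, coloured by group. In each panel both 3 h points lie below both control points, for the first region at 587 and 584 bp against 809 and 858 bp.

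A single summit per list did not mean a fixed summit. Between replicate libraries the strongest summits of a member lay a median of 107 bp apart in controls, 96 bp at 3 h and 92 bp at 12 h. Between control and infested libraries the medians were 103 to 113 bp, and between 3 h and 12 h libraries 94 to 98 bp. Summits in infested libraries were displaced from control summits by about as much as control replicates were from each other. Over all 6 lists the summit of the median member ranged over 295 bp, with quartiles of 192 and 415 bp, and 252 members (14.1%) had a range above 500 bp. The several-summit regions had a median range of 515 bp, a difference to which the rule itself contributes.

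Summit position was tighter at stronger members. With the members put in 5 classes of nearly equal size by mean fold percentile, from lowest to highest, the median summit range was 403, 346.5, 304, 253.5 and 203 bp. Median control coverage in the same classes was 16.5, 15.25, 15.5, 17.0 and 21.0 fragments, and the part of coverage in the summit range was not tested. The smallest range, 16 bp, was at the member on chromosome 12 (5612892 to 5613487) already described among the strongest, followed by 17 bp at the chromosome 6 member (55922 to 56692) and 20 bp at a neighbouring one (31809 to 32606). The largest, 1952 bp, was on chromosome 8 (19918050 to 19920786), where called widths ran from 742 to 2195 bp and fold percentiles from 4.93 to 54.1. Ranges of 1472 and 1468 bp followed on chromosome 11 (23236039 to 23237882) and chromosome 2 (2204431 to 2206275). All 3 had several summits in 1 list.

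**Figure D3:**
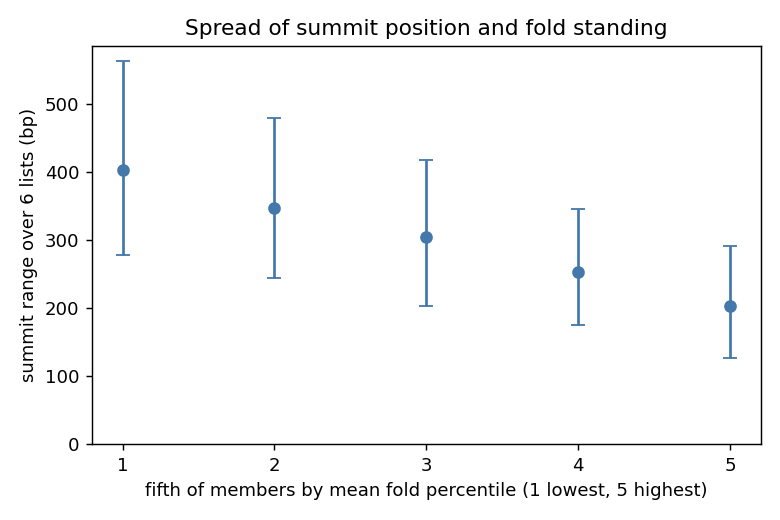
Range in bp of the strongest summit over the 6 lists, for members in 5 classes by mean fold percentile, as medians with bars from the lower to the upper quartile. The median falls from 403 bp in the lowest class to 203 bp in the highest.

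The summit mostly lay near the middle of the called interval. When each interval was cut into 3 equal parts, it fell in the middle one in 81.4% and 81.6% of members in controls, 78.2% and 73.0% at 3 h, and 77.3% and 76.9% at 12 h. The several-summit regions had 48.4% to 64.8%.

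Relative standing within a list was compared between groups by turning the rank of each fold among the 2657 always called regions into a normal score and fitting limma to the 6 libraries. With Benjamini-Hochberg adjustment over the 2657 regions, 0 members passed an adjusted p of 0.05 at 3 h, at 12 h or between the times, and 0% of all always called regions did. The smallest adjusted p was 0.131, 0.110 and 0.561 in turn. At an unadjusted limma p under 0.05 there were 218 members (12.2%) at 3 h, 255 (14.3%) at 12 h and 135 (7.57%) between 12 h and 3 h, beside 11.6%, 14.0% and 6.59% of all always called regions. The comparisons with control share their control libraries, as the comparison of the times shares the infested ones.

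At 3 h, both libraries stood above both controls at 389 members (21.8%; all always called regions 19.9%) and below both at 349 (19.6%; 23.6%). At 12 h they stood above at 412 (23.1%; 21.3%) and below at 380 (21.3%; 24.1%). Between 12 h and 3 h the numbers were 323 higher (18.1%; 18.1%) and 347 lower (19.5%; 19.5%). Members are 67.1% of the always called regions, so their shares cannot lie far from those of all. The several-summit regions stood above both controls in 15.9% and below in 31.9% at 3 h. At 12 h these shares were 17.6% and 29.9%, and between 12 h and 3 h 18.1% were higher and 19.6% lower. Against control, more several-summit regions were thus lower than higher, while slightly more members were higher than lower. Standing also varied within members: the percentile of the median member ranged over 51.8 points across the 6 lists. A member near the middle of all members, on chromosome 12 (2659437 to 2660328), stood at 38.0 and 58.7 in controls, 41.9 and 74.8 at 3 h, and 35.8 and 57.5 at 12 h, with every group overlapping the others. Another, on chromosome 1 (7739096 to 7740901), stood at 95.9 and 71.4 in controls, 43.3 and 26.6 at 3 h, and 37.2 and 32.1 at 12 h, both controls lying above all 4 infested libraries (limma adjusted p = 0.357 at 3 h and 0.274 at 12 h). The third, on chromosome 2 (4145883 to 4147027), was highest in a 12 h library, at 80.6.

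The member with the smallest p at 3 h lay on chromosome 2 (5804780 to 5806352). Its fold percentile was 3.42 and 4.08 in controls, 95.5 and 83.3 at 3 h, and 65.3 and 67.4 at 12 h. Both controls were near the bottom of the always called regions and all infested libraries in the upper part. The control calls were weak, with a −log10 q of 1.42 and 1.73 on 9 and 10 fragments, where the smallest in any list was 1.30. Its score difference from control was 3.11 (SE 0.52; limma adjusted p = 0.131) at 3 h and 2.21 (SE 0.52; limma adjusted p = 0.125) at 12 h. It was 422 and 526 bp wide in controls, 1358 and 1496 bp at 3 h, and 1350 and 1420 bp at 12 h.

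Further members with higher standing at 3 h lay on chromosome 9 (4042348 to 4043497, and 8666984 to 8668077), chromosome 3 (10662376 to 10663520) and chromosome 11 (9109213 to 9110035). Their score differences ran from 1.99 to 2.41, each with a limma adjusted p of 0.270. The 5 leading members with lower standing at 3 h, on chromosomes 5 (29325141 to 29326365), 1 (1338161 to 1339139), 12 (20528119 to 20528959), 3 (31591401 to 31592173) and 9 (18038413 to 18039122), had score differences from −2.66 to −2.22 and the same adjusted p.

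At a pair of these the fold and the coverage parted. The chromosome 1 member (1338161 to 1339139) had summit coverages of 23 and 19 fragments in controls, 36 and 29 at 3 h, and 30 and 41 at 12 h, with a local background of 4.33 and 4.28 fragments in controls, 11.4 and 11.2 at 3 h, and 10.4 and 10.6 at 12 h. Coverage was thus higher in every infested library while its fold was lower, because the fold divides by a background that was higher too. The chromosome 9 member (18038413 to 18039122) had 21 and 20 fragments in controls, 26 and 30 at 3 h, and 21 and 15 at 12 h, over a local background of 3.73 and 3.21, 7.83 and 8.14, and 4.90 and 5.17.

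At 12 h the member with the smallest p lay on chromosome 5 (21078777 to 21079809) and stood lower. Its fold percentile was 91.5 and 92.5 in controls, 36.5 and 38.3 at 3 h, and 7.30 and 9.26 at 12 h, so that the groups followed each other in order without overlap. Its score difference was −2.79 (SE 0.50; limma adjusted p = 0.110) at 12 h and −1.73 (SE 0.50; limma adjusted p = 0.296) at 3 h. A member on chromosome 11 (17236757 to 17237485) had the same order, with percentiles of 80.1 and 80.7 in controls, 22.0 and 30.4 at 3 h, and 4.78 and 2.01 at 12 h. A member on chromosome 1 (36151239 to 36152235) stood at 92.7 and 92.9 in controls, 80.7 and 61.9 at 3 h, and 10.1 and 15.2 at 12 h, the 12 h libraries standing apart. The chromosome 9 member of the 3 h comparison (18038413 to 18039122) and one on chromosome 1 (43116061 to 43117203) completed the 5, with score differences of −2.67 and −2.63 at 12 h (limma adjusted p = 0.110 for each).

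In the other direction at 12 h, a pair of members on chromosome 6 stood highest in the 12 h libraries. One (8550754 to 8552296) had percentiles of 30.0 and 30.1 in controls, 52.9 and 18.4 at 3 h, and 96.5 and 97.1 at 12 h. The other (11461427 to 11462432) had 8.54 and 16.9 in controls, 11.4 and 8.02 at 3 h, and 81.3 and 89.4 at 12 h. Their score differences between 12 h and 3 h were 2.26 and 2.37 (SE 0.53 and 0.51), each with a limma adjusted p of 0.561, so the difference between the times did not pass the test. Members on chromosome 7 (23369478 to 23370772, and 27148985 to 27149862) and chromosome 4 (21757548 to 21758718) were higher at 12 h by 2.41 to 2.63 on the score scale, each with a limma adjusted p of 0.110.

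**Figure D4:**
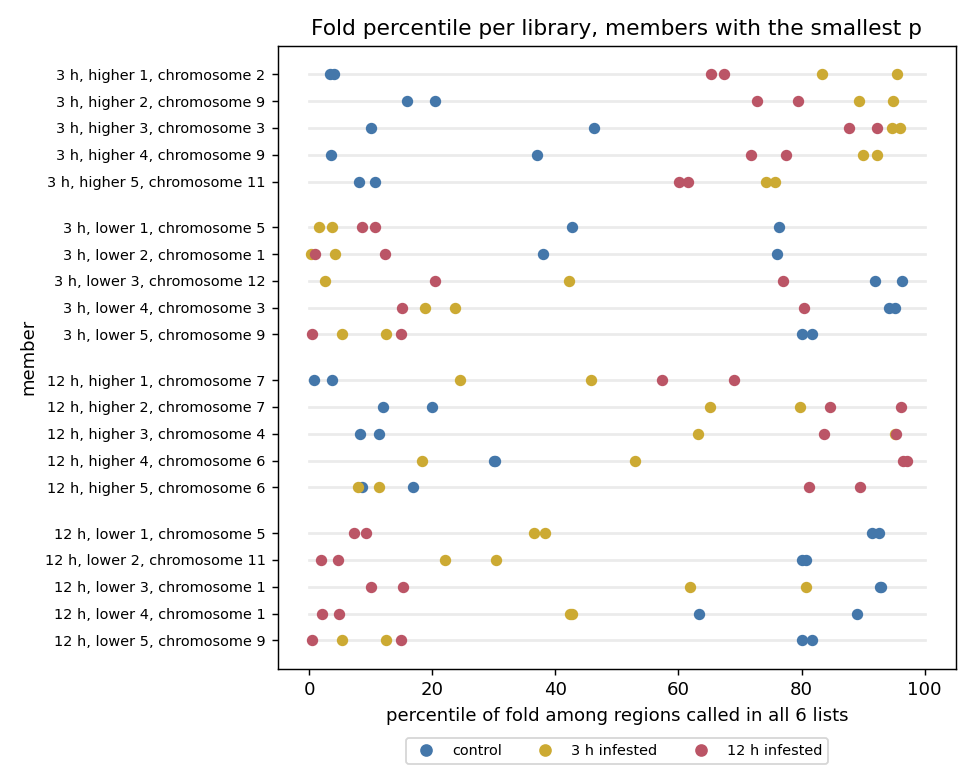
Percentile of fold among the 2657 regions called in all 6 lists, one point per library, for the 5 members with the smallest p in each direction at 3 h and at 12 h. In every row the infested points of the named time lie on one side of both control points, a separation that the choice of rows fixes; the first row runs from 3.42 in a control library to 95.5 at 3 h.

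Ranking the recovered summit coverage in place of the fold gave calls. The coverage is a whole number of fragments and is not divided by the local background. By limma with adjustment over the 2657 regions, 15 members were higher and 28 lower at 3 h, against 0.979% and 1.51% of all always called regions. At 12 h, 47 members were higher and 92 lower, against 3.05% and 5.19%. Between 12 h and 3 h, 6 were higher and 10 lower, against 0.376% and 0.565%. With both directions together, the calls were 2.41% of members at 3 h, 7.80% at 12 h and 0.897% between the times. All always called regions had 2.48%, 8.24% and 0.941% in turn, and the several-summit regions 2.63%, 9.15% and 1.03%. As the main test on folds made no call, these calls depend on the measure that is ranked. The members named from them were taken by smallest p after their values were seen.

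The chromosome 2 member (5804780 to 5806352) led the coverage ranking at 3 h. It had 9 and 10 fragments in controls, 59 and 46 at 3 h, and 36 and 40 at 12 h, a score difference of 4.22 (SE 0.41; limma adjusted p = 0.00143) at 3 h and 3.66 (limma adjusted p = 0.00188) at 12 h. A member on chromosome 1 (26033464 to 26034814) rose in the same way, with 12 and 11 fragments in controls, 41 and 56 at 3 h, and 54 and 55 at 12 h, and score differences of 3.29 (limma adjusted p = 0.00265) and 3.55 (limma adjusted p = 0.00188). In both, every infested library had over 3 times the coverage of either control, and local background was higher with it. On chromosome 2 the background was 2.65 and 2.83 fragments in controls, 8.03 and 7.49 at 3 h, and 6.04 and 6.70 at 12 h. On chromosome 1 it was 2.98 and 2.67 in controls, 7.15 and 7.20 at 3 h, and 8.80 and 10.3 at 12 h, and the fold went from 3.26 and 3.27 in controls to 5.15 and 6.95 at 3 h and 5.61 and 4.94 at 12 h (limma adjusted p = 0.270 and 0.321 with folds ranked). The chromosome 1 member was 727 and 702 bp wide in controls, 1251 and 1234 bp at 3 h, and 1301 and 1335 bp at 12 h.

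Among members lower by coverage, one on chromosome 5 (18106381 to 18107650) had 33 and 38 fragments in controls, 13 and 17 at 3 h, and 19 and 16 at 12 h (score difference −2.73 at 3 h; limma adjusted p = 0.00746). Its local background was lower as well, at 9.59 and 8.37 fragments in controls, 3.80 and 4.43 at 3 h, and 4.48 and 4.35 at 12 h, and its folds overlapped between the groups, at 3.21 and 4.16, 2.92 and 3.32, and 3.65 and 3.18 in the same order (limma adjusted p = 0.430 with folds ranked, 3 h against control). The chromosome 11 member (17236757 to 17237485) had 21 and 17 fragments in controls, 11 and 12 at 3 h, and 7 and 6 at 12 h (score difference −3.10 at 12 h; limma adjusted p = 0.00188). The chromosome 1 member (36151239 to 36152235) had 37 and 30 fragments in controls, 31 and 27 at 3 h, and 11 in both libraries at 12 h (score difference −2.78 at 12 h; limma adjusted p = 0.00378). By coverage the first was low at both times, the second lower at each step and the last low at 12 h. At the last 2, local background was also lowest at 12 h, at 1.49 and 1.43 and at 2.38 and 2.23 fragments. In controls it was 3.73 and 2.64 and 6.01 and 4.39. At the chromosome 11 member the 12 h values equal the genome background of those lists, 1.489 and 1.429 fragments. That level was 2.432 and 2.004 fragments in the control lists, so these values do not show a local fall of that size. The limma adjusted p with folds ranked was 0.110 for both members.

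A member on chromosome 12 (20927665 to 20928281) was low in the 3 h libraries: it had 40 and 38 fragments in controls, 16 in both libraries at 3 h, and 54 and 37 at 12 h. Its widths were 574 and 596 bp in controls, 345 and 389 bp at 3 h, and 526 and 617 bp at 12 h. Its score difference was −2.68 between 3 h and control (limma adjusted p = 0.00746) and 2.78 between 12 h and 3 h (limma adjusted p = 0.0197). With folds ranked the limma adjusted p was 0.339 and 0.561. The reverse course by coverage was seen on chromosome 1 (7594884 to 7595689), with 18 and 20 fragments in controls, 36 in both libraries at 3 h and 11 in both at 12 h (score difference −2.62 between 12 h and 3 h; limma adjusted p = 0.0197). Its local background took the same course, at 4.74 and 4.35 fragments in controls, 6.20 and 7.72 at 3 h, and 2.59 and 2.27 at 12 h (limma adjusted p = 0.659 with folds ranked).

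**Figure D5:**
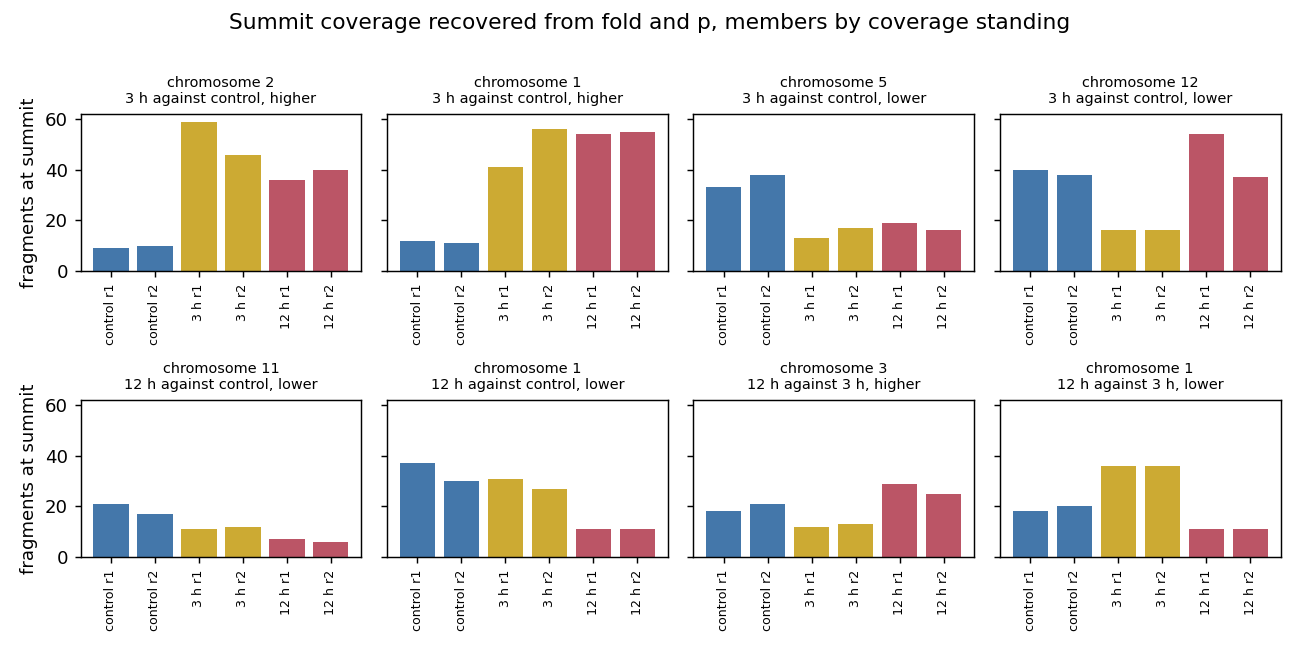
Fragments over the summit in each library, from 0, for 8 members among those with the smallest p by coverage rank, coloured blue for control, yellow for 3 h and red for 12 h, the contrast and direction that named each being given above its bars. The first panel shows 9 and 10 fragments in controls against 59 and 46 at 3 h.

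Members were found on all 12 nuclear chromosomes, from 96 on chromosome 9 to 226 on chromosome 1. Relative to the span between the first and the last called region of a chromosome, they ranged from 3.60 per Mb on chromosome 12 to 6.02 per Mb on chromosome 3. Of 367 full windows of 1 Mb, the median held 4 members and 13 held none. The richest, on chromosome 2 (2000001 to 3000000), held 14. The widest gap between the summits of successive members lay on chromosome 9, from 8667386 to 11630566, each end being the median summit position of a member.

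The share of always called regions that were members was 63.0% to 69.4% on 11 chromosomes and 80.5% (120 of 149) on chromosome 11. This share is set by the rule and is given as a description. When all lists were shortened to the length of the shortest, it was 84.3% on chromosome 11 and at most 80.4% elsewhere.

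Most members stood alone. The median gap to the nearest merged region of any kind was 7526 bp, with 647 members (36.3%) more than 10000 bp away, and the several-summit regions had a median gap of 8363 bp. A neighbour within 1000 bp was found for 110 members (6.17%), for 20 several-summit regions (2.29%) and for 11.5% of the regions called in 1 to 5 lists. For 72 of the 110 members with a close neighbour (65.5%), the neighbour was called in no control list, as it was for 60.0% of such several-summit regions and 73.1% of such regions called in 1 to 5 lists.

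Across the members, the fold rank in one library went only partly with that in another. As a description over 1783 regions that share libraries and background, Spearman's rho between replicates was 0.46 in controls, 0.63 at 3 h and 0.62 at 12 h. Between control and infested libraries it was 0.37 to 0.48, and between 3 h and 12 h libraries 0.55 to 0.59. The control pair, with the shortest lists, was the least alike of the replicate pairs.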

How the data were processed

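The submitters' processing notes name MACS2 2.1.0, Bowtie 1.1.2, Trimmomatic 0.33 and bcl2fastq 2.17, and build IRGSP-1.0. Their settings, and how duplicates and an input control were handled, were not given in the sources used here. For each library separately the authors deposited a peak list with the fold of the summit over local background (a ratio), the −log10 p-value, the −log10 q-value and a whole-number score. The deposited score was not used. A fold was ranked only within its list. The smallest deposited −log10 q was 1.30.

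Rows with the same start and end were 1 interval with several summits. Where a list split a region, its strongest interval gave fold and coverage. Summit coverage and local background were recovered from the deposited fold and −log10 p, within 0.001 on the −log10 p, for 100% of peaks; read totals were not used here.

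Standing was the rank of the fold among the 2657 regions called in all 6 lists, as a normal score, fitted with limma 3.58.1 in R 4.3.3 on all 3 groups, with Benjamini-Hochberg adjustment. Medians per library were compared by exact two-sided permutation tests. Scripts ran in Python 3.11.15, with pandas 2.3.3, NumPy 2.4.6 and SciPy 1.17.1, and the fit was checked on simulated data. With 200 of 2657 simulated regions changed at 12 h, it called 0% of them at a log2 change of 0.5. At changes of 1 and 1.5 it called 58.0% and 64.5%. Every simulated region had the same normal spread of log2 fold, so these shares need not hold for the real lists. The 0 calls on fold ranks therefore do not show that no region changed. Alternatives were stricter q-values, lists of equal length, a merging overlap of 100 bp, no list with several summits, each library left out, a replicate block and other ranked measures.

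Regions named were the 8 of highest mean percentile, the 5 of smallest p in each direction and contrast with control among those where both infested libraries lay on 1 side of both controls, the 2 of highest mean percentile on either side of the rule's edge, and the 3 of smallest and of largest summit range, with the 3 nearest the middle of the members. The members and lists were chosen with earlier results of these data known. Planned results on distance to gene starts, gene lists and promoter motifs were not run, since the annotation at hand is of another assembly.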

Additional observations from a re-analysis of the deposited data

Results flagged for a closer look

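When summit coverage was ranked, 4 named members differed between the infestation times by the direct limma test of 12 h against 3 h. The member on chromosome 12 (20927665 to 20928281) was 2.78 higher on the score scale at 12 h (limma adjusted p = 0.0197), and the one on chromosome 3 (13161934 to 13163327) was 2.54 higher (limma adjusted p = 0.0211), with 18 and 21 fragments in controls, 12 and 13 at 3 h, and 29 and 25 at 12 h. The member on chromosome 1 (7594884 to 7595689) had a difference of −2.62 (limma adjusted p = 0.0197). The member on chromosome 3 (5098618 to 5100293) had a difference of −2.58 (limma adjusted p = 0.0224), with 21 and 25 fragments in controls, 38 in both libraries at 3 h, and 14 and 10 at 12 h. With folds ranked, none of these 4 passed for 12 h against 3 h, with limma adjusted p from 0.561 to 0.824.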

How the results depend on the processing

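The 1783 members became 454 when only peaks with a −log10 q of at least 5 were used, 989 with lists of equal length, 1099 when no list could have several summits, and 1968 to 2643 when one library was left out. The median summit distance, 103 bp over all pairs of lists, became 81, 90 and 88 bp under the first 3 of these. The 636 members wider in every infested list became 162 (35.7% of members), 440 (44.5%) and 381 (34.7%) under the same 3, and 784 to 1288 without one library, settings chosen after seeing the data; without control replicate 1 the count was 1277 (48.3%) and without control replicate 2 it was 1288 (54.3%). The 0 limma calls on fold ranks became 2, 12 and 1 (3 h, 12 h and 12 h against 3 h) with log2 folds centred on each list's median, 2, 16 and 0 with −log10 p ranked, and 43, 139 and 16 with coverage ranked. With the replicate block they stayed at 0, with smallest limma adjusted p of 0.393, 0.190 and 0.729. The labels do not say what same-numbered libraries share. Their deviations correlated at −0.01, −0.04 and 0.01 over 2657 regions, which cannot show a shift common to all regions of a list. Of 244 alternatives for single members, 214 kept direction and side of the threshold, 28 passed it newly and 2 reversed: with coverage ranked, the chromosome 1 member (1338161 to 1339139) and the chromosome 9 member (18038413 to 18039122) were 0.52 and 0.21 higher at 3 h (limma adjusted p 0.524 and 0.808), where the local background in the fold was higher too. These members were chosen by smallest p and separated libraries in the same data, so a kept direction is only a description. The setting where no list could have several summits repeats the main fit. The replicate block leaves each difference unchanged. Median coverage of 16 to 22 fragments limits the values of most members.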
